A study of Danio rerio with 48 samples.

Results

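Heads of zebrafish larvae kept in 1.57 µM perfluorooctane sulfonic acid (PFOS) were compared with heads of larvae kept in the vehicle at 4 days post fertilisation (dpf). The comparison held 12 of the 48 pools of the series, those labelled with this concentration or the vehicle at this age. There were 6 pools in 1.57 µM PFOS (replicates A, B, C, D, E and H) and 6 pools in dimethyl sulfoxide (DMSO; replicates A, D, F, G, H and I). Each pool was 15 heads cut in front of the swim bladder and sequenced as polyA RNA. All larvae, PFOS and DMSO alike, carried 0.4% DMSO, came from a mixed wild-type line maintained with AB and/or Tupfel long fin fish, and had their solution renewed daily. The series also holds 0.88 and 2.8 µM PFOS at 4 dpf and all 4 groups again at 5 dpf. Nothing in the labels ties a pool to a clutch, and the p-values rest on the spread between pools alone, part of which may be technical.

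PFOS is a persistent fluorinated surfactant, and in mammals it binds serum proteins, accumulates in liver and activates peroxisome proliferator-activated receptors. In zebrafish larvae it is studied for its effects on swimming in light and dark. Swimming depends on excitatory glutamate and inhibitory GABA and glycine signalling, on voltage-gated channels, and on acetylcholine receptors of muscle. Immediate early genes are transcription factors and regulators that are switched on within minutes of a stimulus, in neurons and in many other cells.

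Total counts per pool ran from 16744145 to 23795712 at 1.57 µM and from 19473641 to 23748339 in DMSO. Median correlations of a pool with the other 11 were 0.961 to 0.979, and no pair of pools was identical. Pool A at 1.57 µM stood farthest out on the first principal component (24.1% of the variance), at -79.7 against -23.7 to 50 for the others. Pool E at 1.57 µM stood farthest out on the second (20%), at -55.4, and DMSO pool I had the next lowest value there, at -33.9. Markers of neurons, cones, rods, lens, cartilage, epidermis and skeletal muscle were present in every pool. The pancreas marker cpa1 had 0 to 0.0752 CPM (read counts scaled to a common library size) and the intestine marker cdx1b 0 to 0.231 CPM. The liver marker fabp10a ranged from 0.289 to 27.3 CPM between pools.

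No single gene passed the test between 1.57 µM PFOS and DMSO at 4 dpf. Of 20021 genes tested by edgeR's quasi-likelihood test with Benjamini-Hochberg adjustment, 0 passed an adjusted p of 0.05 (0% of genes), and the lowest adjusted p was 1. DESeq2 and limma also called 0 genes. At an unadjusted p under 0.05 there were 200 genes higher at 1.57 µM (0.999% of genes tested) and 190 lower (0.949%). Even together, these shares lie below the share that this threshold passes on average when no gene differs. All 6 PFOS pools lay above all 6 DMSO pools for 8 genes (0.04%) and below them for 4 genes (0.02%). These shares too are below those that groups of 6 pools with no difference give on average. The median log2 fold change over all genes was 0.01, and 52.8% of genes lay higher.

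The precision depended on the level of a gene. The median standard error (SE) of a log2 fold change was 0.25. The 95% interval lay within a 2-fold change either way for 78.8% of genes. That share was 25% for genes with a mean log2 CPM under 0, 81.3% for those from 0 to 2, 95.3% from 2 to 4 and 96.4% at 4 or more. The number of genes at an unadjusted p under 0.05 depended on single pools: 796 without 1.57 µM pool H, 705 without DMSO pool I, 236 without 1.57 µM pool E and 257 without DMSO pool G, against 390 with all 12.

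**Figure D1:**
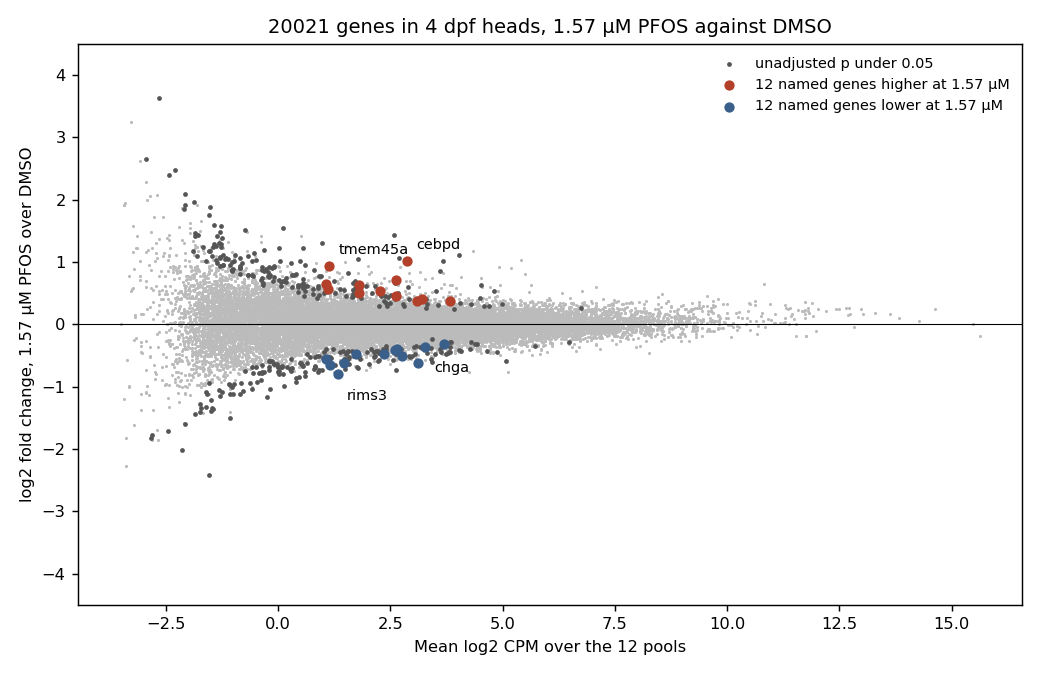
Each point is 1 of 20021 genes, with the mean log2 CPM over the 12 pools on the x axis and the log2 fold change of 1.57 µM PFOS over DMSO on the y axis; dark points have an unadjusted p under 0.05. The 24 coloured genes, 12 higher and 12 lower, lie between -0.80 and 1.01 on the y axis, and no gene passed the adjusted threshold.

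The 12 higher genes with the smallest unadjusted p, among those averaging at least 1 in log2 CPM, were of mixed functions, and none passed over all genes. tmem45a, a transmembrane protein gene whose human counterpart is active in epidermal keratinocytes (chromosome 6, 36821621 to 36837537, GRCz11), had a lowest, median and highest level of 1.63, 2.52 and 5.15 CPM at 1.57 µM, against 1.31, 1.56 and 2.11 CPM in DMSO. Pools B, C and E at 1.57 µM lay above every DMSO pool, and pools A, D and H lay within the DMSO range. The log2 fold change was 0.93 (SE 0.25, unadjusted p = 0.000514). cebpd, a transcription factor of acute inflammation (chromosome 24, 35564668 to 35565928), had 3.28, 9.40 and 21.1 CPM at 1.57 µM, against 3.50, 5.27 and 8.75 CPM in DMSO. Pools A and E held its 2 highest values, at 20.7 and 21.1 CPM, and pool H at 3.28 CPM lay below every DMSO pool. Its log2 fold change was 1.01 (SE 0.39).

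A pair of the 12 are muscle genes. myod1, the transcription factor that commits cells to skeletal muscle (chromosome 25, 31421253 to 31423494), had 5.64, 6.81 and 9.49 CPM at 1.57 µM, against 4.25, 5.35 and 6.03 CPM in DMSO. All 6 PFOS pools lay above the DMSO median and 4 above every DMSO pool, with a log2 fold change of 0.45 (SE 0.16). stac3, which couples membrane excitation to calcium release in skeletal muscle, had 8.66, 10.7 and 13.5 CPM at 1.57 µM, against 6.29, 7.38 and 10.5 CPM in DMSO. Its log2 fold change was 0.41 (SE 0.16), with 3 PFOS pools above every DMSO pool. Outside the 12, chrnd, a subunit of the acetylcholine receptor of the neuromuscular junction, had 4.95, 7.20 and 8.00 CPM at 1.57 µM, against 3.89, 4.71 and 6.29 CPM in DMSO. The 5 highest PFOS pools lay above every DMSO pool. In the list of skeletal muscle genes 2 of 82 tested members were at an unadjusted p under 0.05, beside 1.95% of all genes.

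The other 8 of the 12 higher genes had log2 fold changes between 0.37 and 0.71. They were irf2a, an interferon regulatory factor (0.57), nog1, an antagonist of bone morphogenetic proteins (0.50), tma16, known in yeast for ribosome assembly (0.65), and rgl3a, a Ral exchange factor (0.37). The rest were cldn23a, a tight junction claudin (0.53), cmah, which modifies sialic acid in mammals (0.71), arpc1b, a subunit of the actin-nucleating Arp2/3 complex (0.37), and csrnp1a, a nuclear protein (0.64). For irf2a, nog1 and rgl3a, 5 of 6 PFOS pools lay above every DMSO pool, and 4 did so for tma16, cldn23a and arpc1b.

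The 12 lower genes held vesicle and synaptic genes beside genes of general cell functions. rims3, a protein of the presynaptic active zone (chromosome 19, 25163540 to 25301712), had 1.41, 1.98 and 2.13 CPM at 1.57 µM, against 2.18, 3.42 and 4.17 CPM in DMSO. Its groups did not overlap, although the gap between them was narrower than the range within either group. The log2 fold change was -0.80 (SE 0.28, unadjusted p = 0.0066). chga, chromogranin A of dense-core vesicles in neuroendocrine cells, had 7.58, 8.36 and 9.99 CPM at 1.57 µM, against 8.18, 10.7 and 14.3 CPM in DMSO, a log2 fold change of -0.36 (SE 0.14). All 6 PFOS pools lay below the DMSO median for chga, and 3 lay below every DMSO pool.

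mtfr2, a regulator of mitochondrial fission, had the smallest p of the lower genes, with 1.25, 1.73 and 2.47 CPM at 1.57 µM, against 2.24, 2.64 and 3.52 CPM in DMSO. For it and for col4a3, a collagen IV chain of basement membranes, 5 of 6 PFOS pools lay below every DMSO pool, and the log2 fold changes were -0.65 (SE 0.22) for mtfr2 and -0.62 (SE 0.21) for col4a3. The other 8 had log2 fold changes between -0.62 and -0.31. They were klhl7, an adaptor of a ubiquitin ligase, pgm2l1, an enzyme of sugar phosphate metabolism, znf704, a zinc finger gene, b4galt3, a galactosyltransferase, and mkl2a, a coactivator of serum response factor. phlda1, mcoln1b, a lysosomal cation channel, and retreg2, a receptor for autophagy of the endoplasmic reticulum in mammals, completed the set. irf2a, nog1, cldn23a, mtfr2, col4a3, chrm2a and egr2a each overlap another annotated gene. No source used here states whether counting used strand, so reads of the overlapping gene cannot be told apart in them.

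**Figure D2:**
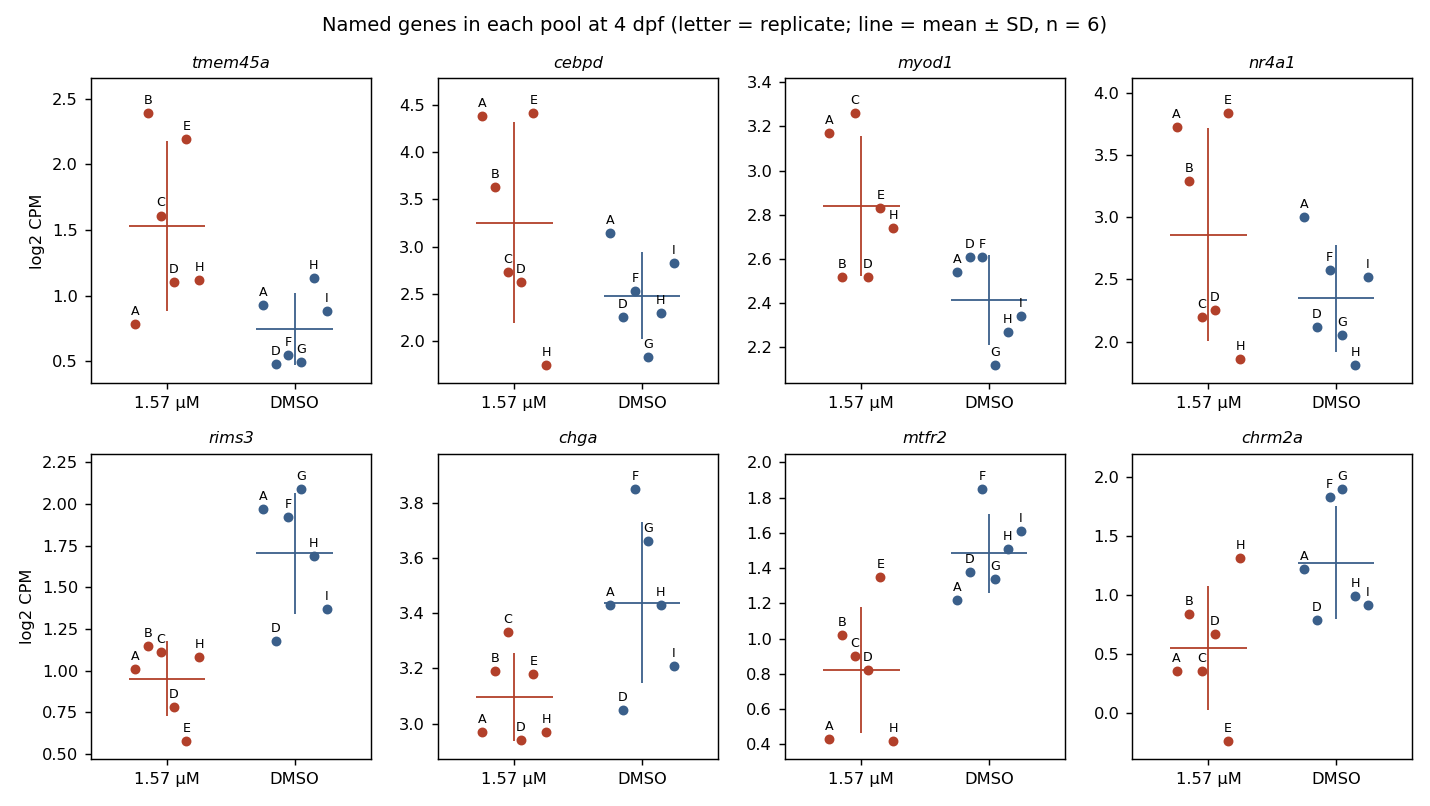
Level of 8 named genes in each pool, 1.57 µM PFOS on the left and DMSO on the right, as log2 CPM with replicate letters; lines give the mean ± SD of 6 pools. The groups are apart for rims3 and overlap for the other 7, and 1.57 µM pools A and E hold the 2 highest values of cebpd and of nr4a1.

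Genes whose groups did not overlap were named after their values were seen. On the higher side capn3b, a calpain protease known in mammals from skeletal muscle, had 1.25, 1.58 and 2.16 CPM at 1.57 µM, against 0.619, 0.880 and 1.00 CPM in DMSO (log2 fold change 0.98, SE 0.29). crabp2a, a retinoic acid binding protein, had 2.37, 2.87 and 4.16 CPM at 1.57 µM, against 1.81, 2.13 and 2.33 CPM in DMSO. The other 6 were chia.1, duox, gpr182, klhl38b, nkpd1 and tlx1. On the lower side, beside rims3, col28a1a, a collagen chain, had 6.67, 8.51 and 10.6 CPM at 1.57 µM, against 10.8, 12.4 and 16.9 CPM in DMSO (log2 fold change -0.55, SE 0.23). The rarer cyth4a and tctex1d2 reached at most 1.32 CPM in any pool.

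Most genes of neuronal signalling had lower values at 1.57 µM, by less than the spread between pools, and no member passed over all genes. The list of N-methyl-D-aspartate (NMDA) glutamate receptor subunits had 12 of 12 members lower with a median log2 fold change of -0.24, beside 0.01 over all genes. Metabotropic glutamate receptors had 12 of 12 lower with a median of -0.18, and AMPA and kainate receptors 14 of 15 lower with -0.17. Voltage-gated potassium channels had 30 of 32 lower with -0.29, calcium channels 22 of 29 with -0.23 and sodium channels 8 of 12 with -0.22. GABA signalling genes had 27 of 33 lower with -0.24, glycine signalling 7 of 8 with -0.20, and genes of dopamine, noradrenaline and serotonin 26 of 33 with -0.19. Synaptic vesicle genes had 35 of 46 lower with -0.20, and glutamate transporters and scaffolds 29 of 37 with -0.19. The acetylcholine list was more evenly split, with 13 of 24 lower, 11 higher and a median of -0.08. Pan-neuronal markers moved with them, with 25 of 30 lower and a median of -0.15. The summed level of the neuron markers used in the tissue check was 2130 to 3690 CPM at 1.57 µM, against 2330 to 3760 CPM in DMSO. In pooled heads, fewer neurons, less RNA per neuron and a larger share of RNA from other tissues cannot be told apart.

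Single members had overlapping ranges in both groups. grin1b, which encodes the obligatory NMDA receptor subunit, had 87.9, 152 and 209 CPM at 1.57 µM, against 97.6, 163 and 199 CPM in DMSO, a log2 fold change of -0.14 with a 95% interval of -0.61 to 0.33. Its paralog grin1a had -0.15, grin2aa had -0.19 and grin2bb had -0.36 (SE 0.26). syt1a, the calcium sensor of vesicle release, had 397, 657 and 858 CPM at 1.57 µM, against 401, 780 and 840 CPM in DMSO, a log2 fold change of -0.20 (SE 0.25). gad2, which makes GABA, had 158, 248 and 396 CPM at 1.57 µM, against 180, 351 and 426 CPM in DMSO. Its log2 fold change of -0.34 had a 95% interval of -0.88 to 0.20. The GABA transporter slc6a1b had -0.20 (SE 0.25), the glial glutamate transporter slc1a2b -0.19 (SE 0.26), the sodium channels scn8aa -0.30 and scn1lab -0.42, and the potassium channel kcnc1a -0.44 (SE 0.26). kcnb2, another potassium channel, was 1 of the 2 members on the higher side, at 0.16 (SE 0.16).

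Members of these lists at an unadjusted p under 0.05 were few, and 1.95% of all genes tested were at that level. They were grin3bb (-0.62), grm1b (-0.44) and grm5a (-0.40) among glutamate receptors, gabra5 (-0.42) among GABA genes and kcnc3b (-0.59) and kcnh1a (-0.52) among potassium channels, all chosen after their values were seen. gabrr2b, a GABA receptor subunit known from retina, also chosen after its values were seen, lay the other way (1.18) at under 1 CPM. The acetylcholine list held 3 among its 24 tested members, chosen by rule. chrm2a, a muscarinic receptor, had 0.755, 1.34 and 2.4 CPM at 1.57 µM, against 1.64, 2.07 and 3.65 CPM in DMSO (log2 fold change -0.74, SE 0.35). chrna2b, a nicotinic receptor subunit, had -0.55 (SE 0.26) with 5 of 6 PFOS pools below every DMSO pool. The third was the muscle subunit chrnd, at 0.46 (SE 0.22), so the 3 members lay on both sides of DMSO.

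The same few pools were low in most neuronal lists. The level of a list in a pool was taken as the mean log2 CPM of its members. The mean level of the NMDA list was 3.72 ± 0.39 in the 1.57 µM pools, against 3.97 ± 0.43 in the DMSO pools (SD, n = 6 each). Pools E and B at 1.57 µM were low, at 3.11 and 3.45, and pool H was high, at 4.2. In DMSO, pools I and D were low, at 3.31 and 3.61, and pools A, F and G were high, at 4.17 to 4.38. Potassium channels averaged 2.19 ± 0.34 at 1.57 µM and 2.46 ± 0.33 in DMSO, again with pool E lowest (1.61) and DMSO pool I lowest of its group (1.93). Without 1.57 µM pool E the NMDA median was -0.14, the potassium channel median -0.19 and the synaptic vesicle median -0.12. Without DMSO pool I the NMDA median was -0.38, and without DMSO pool G it was -0.14 and the potassium channel median -0.19. Over all single pools left out, the median ranged from -0.29 to -0.08 for AMPA and kainate receptors, from -0.37 to -0.16 for GABA signalling and from -0.32 to -0.13 for calcium channels. The groups overlapped for every neuronal list. In an alternative fit with the replicate letter as a block over all 48 libraries, the NMDA median was -0.02 and the potassium channel median -0.1.

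**Figure D3:**
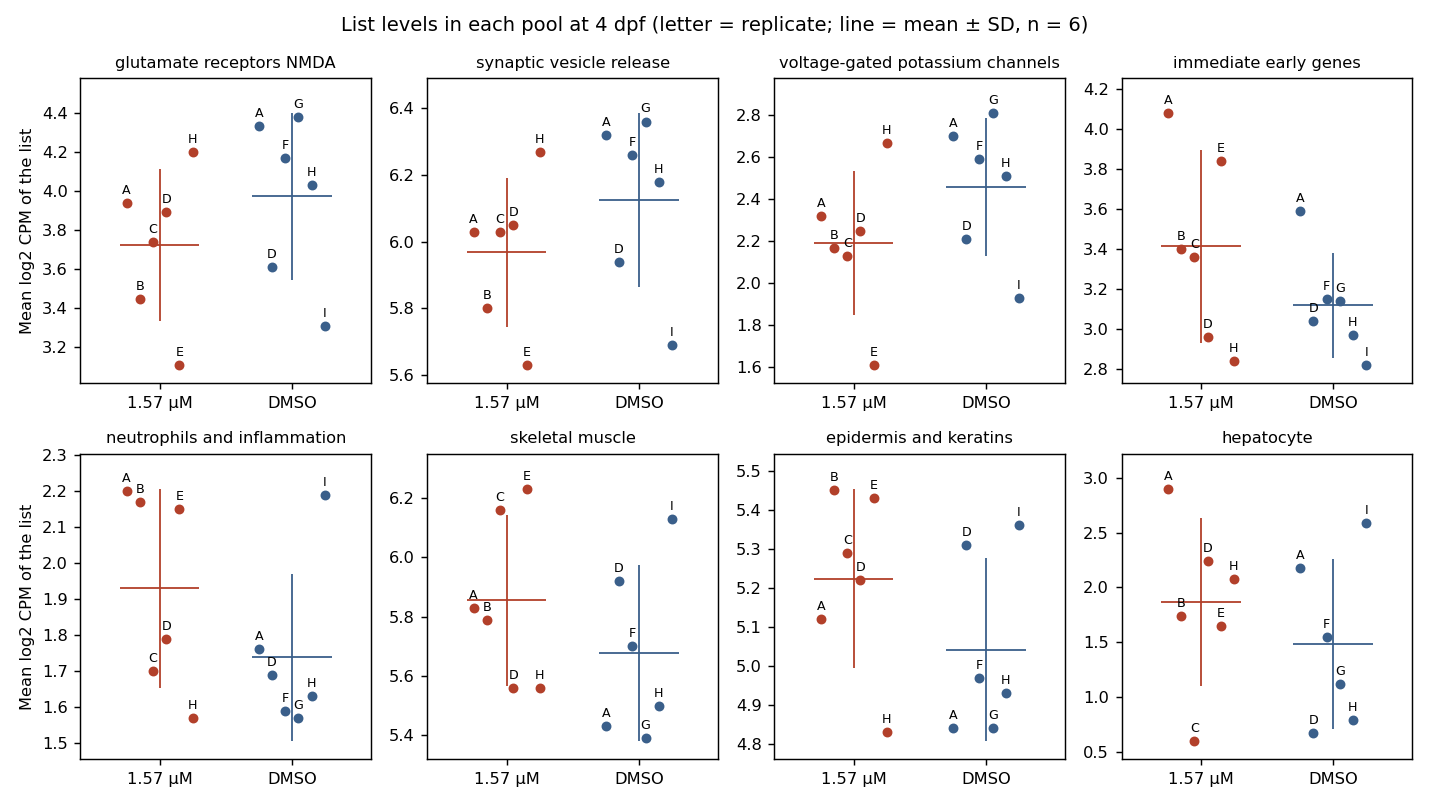
Level of 8 gene lists in each pool, 1.57 µM PFOS on the left and DMSO on the right, as the mean log2 CPM of the list's members with replicate letters; lines give the mean ± SD of 6 pools. 1.57 µM pool E and DMSO pool I are the lowest of their groups in all 3 neuronal lists and the highest of their groups for skeletal muscle, and the groups overlap in all 8 lists.

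Genes of several tissues outside the nervous system lay higher at 1.57 µM in most members, again within the spread between pools. Skeletal muscle had 75 of 82 members higher with a median log2 fold change of 0.22, epidermis and keratins 57 of 62 with 0.22, cartilage 31 of 37 with 0.22 and fibroblast and matrix genes 43 of 48 with 0.18. Cardiac muscle had 20 of 22 higher with 0.26, bone and tooth 21 of 31 with 0.17, and pigment cells 31 of 34 with 0.14. The list of neural progenitor and proliferation genes, not a list of tissues outside the nervous system, also had 25 of 28 higher, with a median of 0.13. Other lists had smaller or negative medians. Endothelium had 0.07 (30 of 40 higher), ionocytes 0.06 (20 of 29), exocrine pancreas 0.06 (13 of 22) and sensory hair cells -0.01 (12 of 27). Pituitary hormones had -0.08 (1 of 7 higher) and the oestrogen and vitellogenesis list -0.27 (2 of 7). The pools lowest in the NMDA list of their group were the highest of their group for muscle. In 1.57 µM pool E, low in the NMDA list, muscle stood at 6.23 and epidermis at 5.43, and in 1.57 µM pool H, high in the NMDA list, they stood at 5.56 and 4.83. In DMSO pool I they stood at 6.13 and 5.36, and in DMSO pool G at 5.39 and 4.84. The part of tissue makeup of the pools in the neuronal values was not tested.

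The most abundant members show the size of the differences. col2a1a, the main collagen of cartilage, had 25600, 26700 and 31600 CPM at 1.57 µM, against 19000, 22200 and 30600 CPM in DMSO. All 6 PFOS pools lay above the DMSO median, and the log2 fold change was 0.24 (SE 0.23). matn1, a cartilage matrix protein, had 2390, 4510 and 5210 CPM at 1.57 µM, against 2690, 3380 and 4260 CPM in DMSO, with 5 of 6 PFOS pools above every DMSO pool and pool H below them all. ckmb, the creatine kinase of muscle, had a log2 fold change of 0.31 (SE 0.30) and the myosin heavy chain myhz1.1 had 0.19 (SE 0.25). krt91, a keratin, had 384, 808 and 1050 CPM at 1.57 µM, against 454, 496 and 981 CPM in DMSO. tyrp1a, an enzyme of melanin synthesis, had 0.48 (SE 0.37). Without 1.57 µM pool E the muscle median was 0.10, the fibroblast median 0.08, the bone median 0.03 and the cardiac median 0.11. Without 1.57 µM pool C the muscle median was 0.14, and without DMSO pool I the fibroblast median was 0.30. The epidermis and cartilage medians ranged from 0.15 to 0.31 when any single pool was left out. With the replicate letter as a block over all 48 libraries they were 0.08 for epidermis and 0.04 for cartilage.

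Immediate early genes lay higher at 1.57 µM in 26 of 29 members, with a median log2 fold change of 0.30, and 3 were at an unadjusted p under 0.05. Over all genes 52.8% lay higher and 1.95% were at an unadjusted p under 0.05. nr4a1, an orphan nuclear receptor, had 3.54, 7.17 and 14.2 CPM at 1.57 µM, against 3.43, 4.96 and 7.90 CPM in DMSO (log2 fold change 0.67, SE 0.30). Only 3 PFOS pools, A, B and E, lay above the DMSO range, and the other 3 were at 3.54 to 4.67 CPM. atf3, a transcription factor of cell stress, had 3.49, 4.80 and 8.46 CPM at 1.57 µM, against 3.00, 3.63 and 4.32 CPM in DMSO (0.61, SE 0.28). egr2a, a zinc finger transcription factor, reached 6.24 CPM in pool A and 5.74 CPM in pool E at 1.57 µM. The other 4 PFOS pools had 0.312 to 1.44 CPM, against 0.333 to 2.31 CPM in DMSO.

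The same pools stood out for fosab and for the level of the list, but not for every abundant member. fosab, a Fos protein named after its values were seen, had 101 CPM in 1.57 µM pool A and 78.6 CPM in pool E, 8.91 to 23.0 CPM in the other 4 PFOS pools, and 11.6 to 32.4 CPM in DMSO. btg2, an antiproliferative gene, had a log2 fold change of 0.81 (SE 0.47), jun 0.31 (SE 0.23), klf6a 0.14 (SE 0.16) and egr1 0.12 (SE 0.33). For egr1, 4 PFOS pools lay above every DMSO pool and 1 below them all. For klf6a, all 6 PFOS pools lay above the DMSO median, at 47 to 57.6 CPM. At the level of the list, pools A and E at 1.57 µM stood at 4.08 and 3.84, the other 4 PFOS pools at 2.84 to 3.40 and the DMSO pools at 2.82 to 3.59. The median log2 fold change of the list was 0.17 without pool A, 0.18 without pool E and 0.03 without both, a setting chosen after seeing the data. In that setting fosab and egr1 lay lower than DMSO, at -0.29 and -0.08.

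Inflammation genes shared part of this pattern. In the list of neutrophil and inflammation genes 19 of 25 lay higher with a median of 0.25, beside 52.8% of all genes, and 3 were at an unadjusted p under 0.05, beside 1.95% of all genes. cebpb, a transcription factor of inflammation, had 46.1 CPM in 1.57 µM pool A and 34.9 CPM in pool E, 6.87 to 14.8 CPM in the other 4 PFOS pools and 6.99 to 14.1 CPM in DMSO. ptgs2b, a cyclooxygenase that starts prostaglandin synthesis, had 1.72, 3.79 and 8.61 CPM at 1.57 µM, against 1.71, 2.25 and 3.93 CPM in DMSO (0.82, SE 0.33). c3a.2, a complement component, had 5.04, 35.2 and 51.7 CPM at 1.57 µM, against 4.29, 11.3 and 33.6 CPM in DMSO, with 4 PFOS pools above every DMSO pool. The neutrophil peroxidase mpx had 0.19 (SE 0.20), and irg1l, an immune-responsive gene of keratinocytes and macrophages in zebrafish, lay lower at -0.77 (SE 0.52). The median of this list was 0.12 without 1.57 µM pool E and 0.22 without 1.57 µM pool A. Macrophage and microglia genes had 26 of 33 higher with 0.17. Stress axis and glucocorticoid response genes had 14 of 18 higher with 0.18, among them fkbp5, a glucocorticoid-induced chaperone, at 0.52 (SE 0.28).

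Photoreceptor genes lay slightly higher at 1.57 µM. Rod phototransduction had 20 of 24 members higher with a median of 0.18 and cone phototransduction 26 of 32 with 0.12; without 1.57 µM pool E these were 0.08 and 0.04. rho, the rod opsin, had 4910, 10900 and 21500 CPM at 1.57 µM, against 8160, 9250 and 12900 CPM in DMSO, so that the PFOS pools held both its highest and its lowest value. Its log2 fold change was 0.18 (SE 0.33), and without 1.57 µM pool A it was -0.08. opn1sw1, the ultraviolet cone opsin, had 6750, 9440 and 10600 CPM at 1.57 µM, against 6230, 7810 and 8430 CPM in DMSO. pde6ga (1.31, SE 0.49) and opn1lw1 (1.01, SE 0.43), low in most pools and chosen after their values were seen, were the only members of these lists at an unadjusted p under 0.05. Without 1.57 µM pool A, pde6ga had 0.67. Lens crystallins had a median of 0.16, which was -0.02 without 1.57 µM pool A. Their level was highest in that pool, at 7.66, and the lowest PFOS pool stood at 6.34, against 6.5 to 7.19 in DMSO. In all, 2 PFOS pools lay above every DMSO pool and 2 lay below them all.

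Gene systems known to answer to PFOS or to other chemicals in fish or mammals showed small medians. Targets of peroxisome proliferator-activated receptors and fatty acid oxidation had a median of 0.09 (36 of 50 higher). acadvl, which starts mitochondrial oxidation of long fatty acids, had 71.4, 79.9 and 85.9 CPM at 1.57 µM, against 72.2, 75.6 and 89.8 CPM in DMSO, and a 95% interval of the log2 fold change of -0.21 to 0.29. hadhab, of the same pathway, had an interval of -0.15 to 0.24. Cholesterol synthesis genes had a median of 0.04, and hmgcra, its rate-limiting reductase, 0.08 with an interval of -0.23 to 0.39. Antioxidant genes of the Nrf2 pathway had 0.04, with txnrd3 at 0.10 (interval -0.14 to 0.34) and gpx4b at 0.34 (interval -0.35 to 1.03). Genes of p53 had -0.01, the thyroid axis 0.02 and heat shock genes 0.09. In the thyroid list tg, the precursor of thyroid hormone, had -0.13 (SE 0.22), and nkx2.4b, a transcription factor of thyroid and forebrain chosen after its values were seen, had -0.69 (SE 0.32).

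Xenobiotic metabolism and transport genes had 41 of 55 higher with a median of 0.22, which ranged from 0.17 to 0.26 when any single pool was left out. The median was 0.08 on the deposited normalized values, 0.11 with only the 12 libraries compared, 0.12 with only the 24 at 4 dpf and 0.14 with a filter of 1 CPM in 6 libraries. abcb5, an efflux transporter of zebrafish, had 28.6, 42.5 and 58.9 CPM at 1.57 µM, against 26.1, 29.3 and 43.7 CPM in DMSO (0.39, SE 0.24). tiparp, a target of the aryl hydrocarbon receptor, had 0.10 (SE 0.21). cyp2v1, a cytochrome P450 chosen after its values were seen, was the only member at an unadjusted p under 0.05, with all 6 PFOS pools above the DMSO median (0.71, SE 0.29). Markers of liver, which is known for most of these enzymes, lay higher as well: the hepatocyte list had 39 of 44 higher with a median of 0.34. Its mean level was 1.87 ± 0.76 in the 1.57 µM pools (0.60 to 2.90), against 1.49 ± 0.77 in the DMSO pools (0.67 to 2.59; SD, n = 6 each). The median was 0.06 without 1.57 µM pool A, 0.69 without DMSO pool I, 0.52 without 1.57 µM pool C or DMSO pool A, and 0.21 without DMSO pool H. apobb.1, a lipoprotein of liver and yolk, had 10.9, 107 and 229 CPM at 1.57 µM, against 21.9, 97.0 and 190 CPM in DMSO, and tfa, the iron carrier transferrin, had a log2 fold change of 0.32 (SE 0.50). The summed level of the hepatocyte markers was 41.1 to 215 CPM at 1.57 µM, against 26.6 to 196 CPM in DMSO, and the part of the amount of liver in a cut head in these values was not tested. cubn, an endocytic receptor chosen after its values were seen, lay higher (0.54, SE 0.26).

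**Figure D4:**
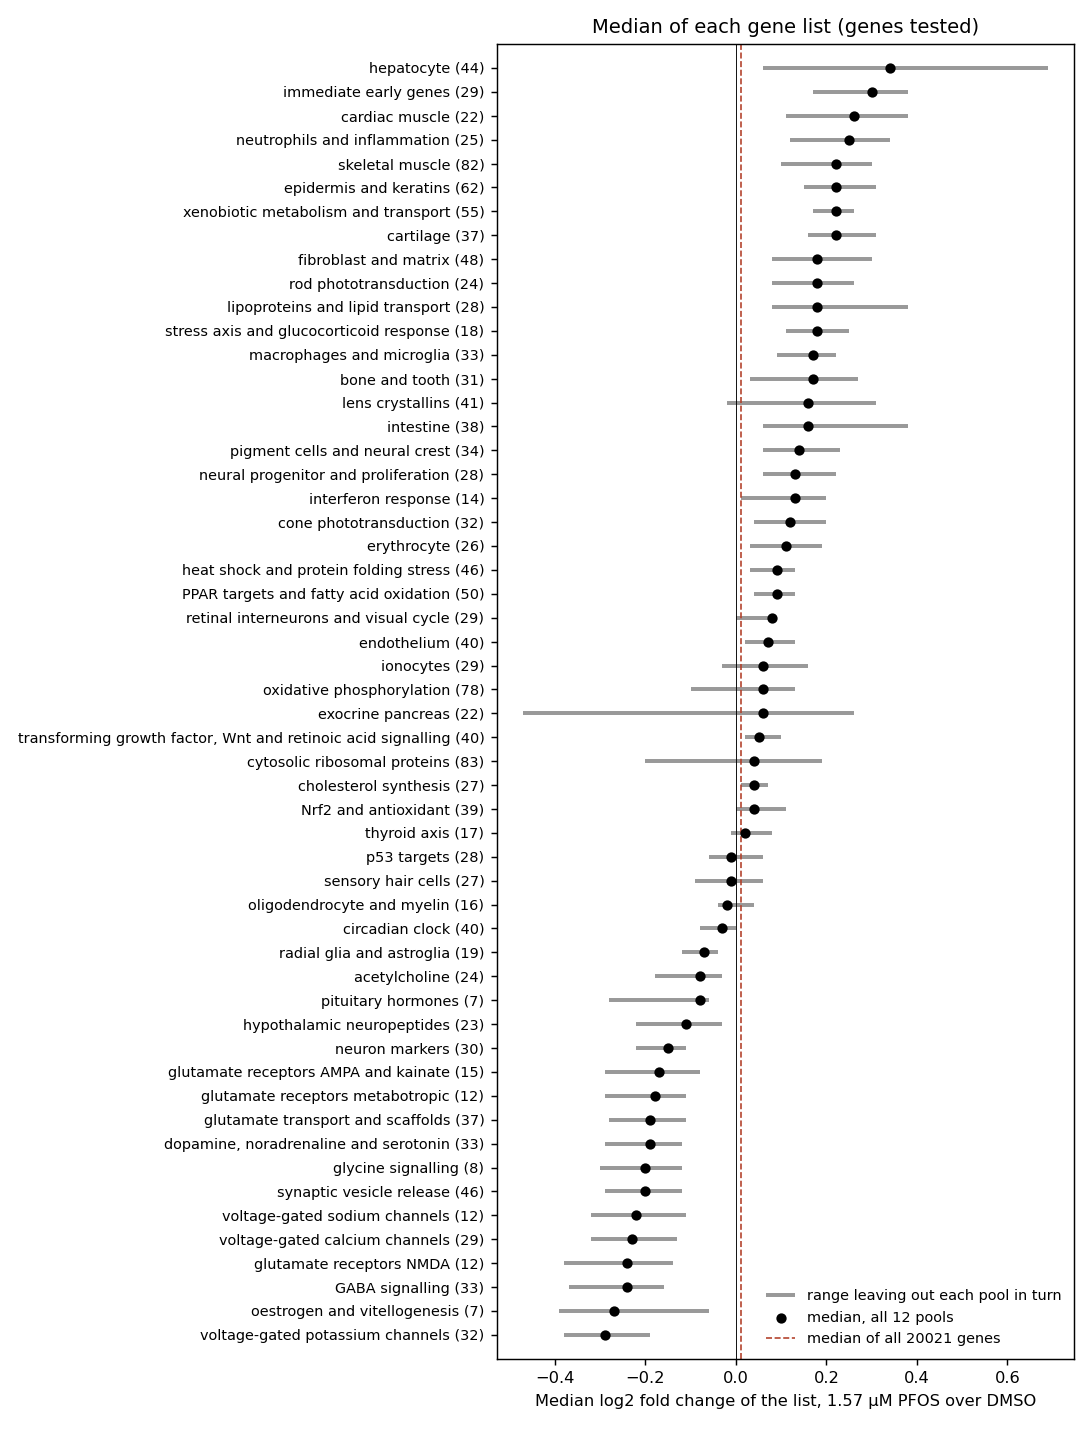
Median log2 fold change of 1.57 µM PFOS over DMSO for each of 54 gene lists (points; genes tested in parentheses), with the range of that median when each of the 12 pools is left out in turn (bars); the dashed line is the median of all genes, 0.01. Neuronal lists lie on the left, down to -0.29 for potassium channels, beside the oestrogen and vitellogenesis list of 7 genes tested, at -0.27. The hepatocyte list has the highest median, 0.34, with a range of 0.06 to 0.69.

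Set against the neighbouring concentrations at 4 dpf, no gene passed for 1.57 µM. Against 0.88 µM, 0 of 20021 genes passed (0%) by edgeR's quasi-likelihood test, with a lowest adjusted p of 0.988 and 418 genes (2.09%) at an unadjusted p under 0.05. Against 2.8 µM, 0 passed (0%), with 362 (1.81%) at an unadjusted p under 0.05. DESeq2 called 0 genes in both. Against DMSO, with the same 6 DMSO pools in each comparison, 0.88 µM had 0 genes past the threshold (0%) and 392 (1.96%) at an unadjusted p under 0.05, and 2.8 µM had 0 (0%) and 1202 (6%).

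Side by side, with the DMSO pools shared, the medians of the lists at 0.88, 1.57 and 2.8 µM over DMSO were as follows. For NMDA receptors they were -0.04, -0.24 and -0.31, for potassium channels -0.08, -0.29 and -0.35, for synaptic vesicles -0.08, -0.20 and -0.20, and for GABA signalling -0.14, -0.24 and -0.37. Whether these medians follow concentration was not tested. Within the groups, the SD of the NMDA level was 0.32 to 0.45, more than any step between its medians. With the replicate letter as a block over all 48 libraries, the NMDA median for 1.57 µM over DMSO was -0.02. The list medians of the other comparisons in this paragraph were not recomputed with that block or with pools left out. Not every neuronal list was ordered by concentration. Pan-neuronal markers had -0.02, -0.15 and -0.10, and glutamate transporters and scaffolds -0.07, -0.19 and -0.13. Genes of dopamine, noradrenaline and serotonin had -0.08, -0.19 and -0.13. Skeletal muscle had 0.11, 0.22 and 0.25, epidermis 0.15, 0.22 and 0.27, and immediate early genes -0.03, 0.30 and 0.32. The hepatocyte list had 0.69, 0.34 and -0.15. Ribosomal protein genes had 0.24, 0.04 and 0.67, and genes of oxidative phosphorylation 0.23, 0.06 and 0.59. At 1.57 µM the ribosomal median ranged from -0.20 without pool A to 0.19 without DMSO pool D. The level of the immediate early list reached 4.32 in a pool at 2.8 µM and 4.08 in a pool at 1.57 µM, and the highest pool at 0.88 µM stood at 3.39. Directly between 1.57 and 0.88 µM, without the DMSO pools, the median was -0.24 for NMDA receptors (12 of 12 lower at 1.57 µM), -0.17 for potassium channels and 0.23 for immediate early genes. Metabotropic glutamate receptors had -0.25 there (11 of 12 lower) and AMPA and kainate receptors -0.18 (14 of 15 lower). Genes of dopamine, noradrenaline and serotonin had -0.18 (26 of 33 lower). Some neuronal lists lay closer to 0, at -0.09 for synaptic vesicles, -0.07 for GABA signalling and -0.01 for sodium channels (6 of 12 lower). Glycine signalling had 0.09 (3 of 8 lower).

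**Figure D5:**
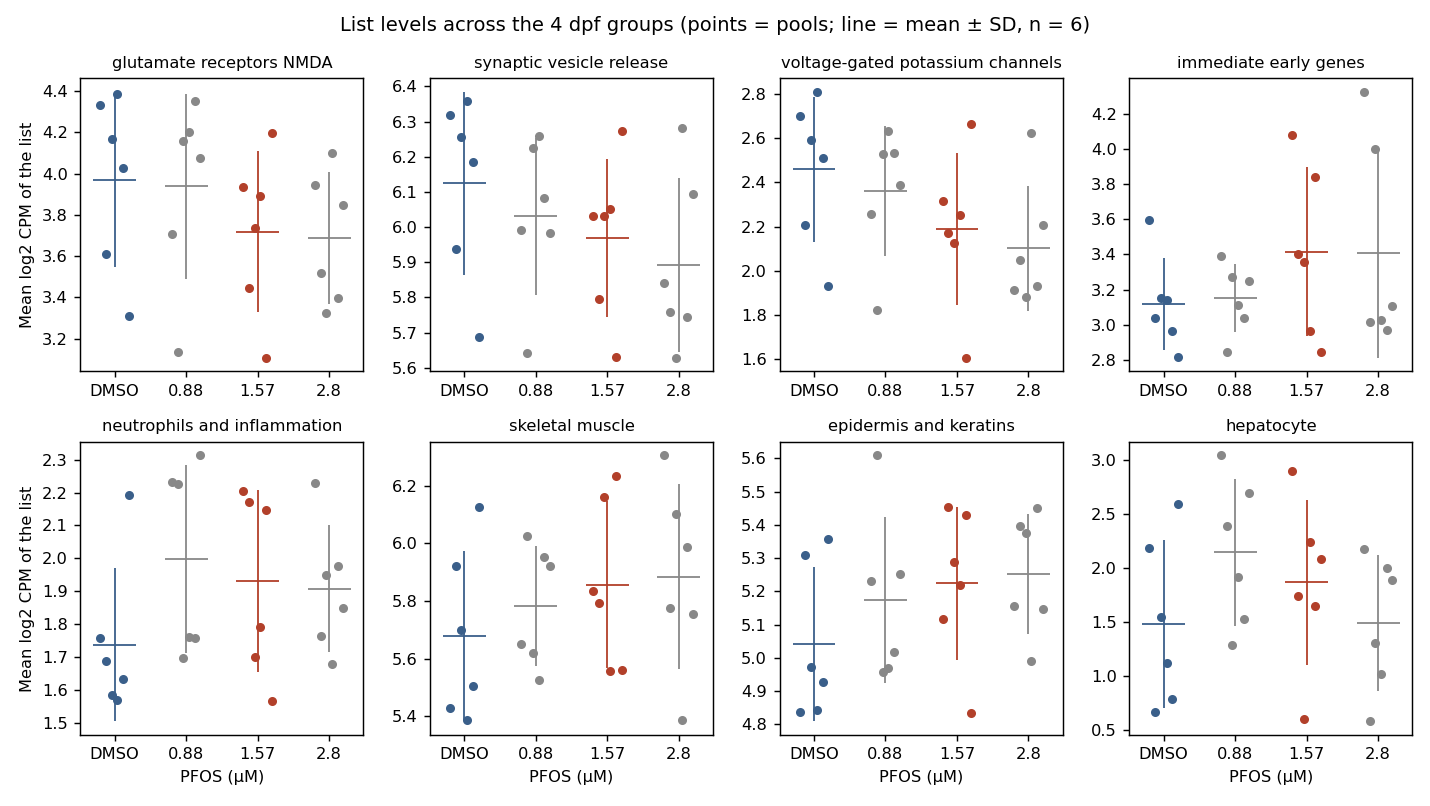
Level of 8 gene lists in every pool of the 4 dpf groups, from DMSO through 0.88 and 1.57 to 2.8 µM PFOS on the x axis, as the mean log2 CPM of the members; lines give the mean ± SD of 6 pools. The ranges of all 4 groups overlap in each list, and the mean of the potassium channel list is 2.46 in DMSO, 2.36 at 0.88, 2.19 at 1.57 and 2.1 at 2.8 µM.

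The same concentration was also compared with DMSO at 5 dpf. There, 16 genes (0.0799%) passed against the DMSO pools of that age, and 1010 (5.04%) were at an unadjusted p under 0.05. The difference between the effects at 4 and at 5 dpf was tested in the same fit, and 0 genes passed (0%), with a lowest adjusted p of 0.742 by edgeR's quasi-likelihood test and 980 genes (4.89%) at an unadjusted p under 0.05. DESeq2 called 5 genes for this difference, amy2a, cpa5, ctrl, ela2l and prss59.1, named after their values were seen. All 5 encode digestive enzymes of the exocrine pancreas. At 4 dpf ctrl had a median of 0.606 CPM at 1.57 µM, against 0.511 CPM in DMSO, and at 5 dpf 0.792 CPM at 1.57 µM, against 21.0 CPM in DMSO. In all 5 genes the highest value was in a DMSO pool at 5 dpf, from 235 CPM for ctrl to 547 CPM for ela2l.

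Several neuronal lists and the muscle list had medians of opposite sign at the 2 ages, differences of lists that were not tested. For the 1.57 µM effect, the NMDA list had -0.24 at 4 dpf and 0.17 at 5 dpf (10 of 12 higher at 5 dpf), AMPA and kainate receptors -0.17 and 0.24 (15 of 15 higher at 5 dpf), and synaptic vesicles -0.20 and 0.18. Skeletal muscle had 0.22 at 4 dpf and -0.24 at 5 dpf (67 of 82 lower at 5 dpf), fibroblast and matrix genes 0.18 and -0.21, and the hepatocyte list 0.34 and -0.74. Immediate early genes had 0.30 at 4 dpf and 0.04 at 5 dpf. Of the named genes, stac3 had 0.41 at 4 dpf and -0.43 at 5 dpf, with an unadjusted p of 0.000395 for the difference, and tmem45a had 0.93 and -0.29, with 0.00126. Neither difference passed over all genes. Both genes were named for a small p at 4 dpf, and the difference reuses those values, so its p is not independent of that choice.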

How the data were processed

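PolyA RNA from 48 pools of heads was sequenced as single reads of 75 cycles in 3 sequencing pools of 16 libraries, per the labels' protocols. Which sequencing pool held a given library is not stated in the labels. STAR 2.5.3a, Partek 8.0.19.0428 and GRCz11 were used, per the submitters' processing notes. The deposited raw table holds expected counts for 25377 genes. The second deposited table holds quantile-normalized log2 values for 20466 genes, per the file headers, and served as an alternative.

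Expected counts were rounded, filtered with filterByExpr by group (20021 genes) and scaled by TMM. All 48 libraries in 8 groups were fitted with edgeR 4.0.16 (quasi-likelihood F test, Benjamini-Hochberg adjustment over all genes tested, threshold 0.05, no covariate). SE was computed as |log2 fold change| / sqrt(F), and log2 CPM used a prior count of 2. Alternatives used limma 3.58.1 and DESeq2 1.42.0. Counts per pool bound the precision, and intervals follow the spread between pools.

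Genes named are the 12 higher and 12 lower with the smallest unadjusted p, a gene name and an average log2 CPM of 1 or more, up to 4 members by p from lists with at least 3 at an unadjusted p under 0.05, and members among the 4 most abundant of a list; others are marked in the text. The 54 lists hold 2015 entries, counted list by list, of which 1860 matched the table. The 1741 that passed the filter and were tested were described without a set test. The comparison, the lists and the members were chosen with earlier results of these data known. Reads were not analysed here, and some members of the lists are not reported by name.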

Additional observations from a re-analysis of the deposited data

Results flagged for a closer look

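Among 296 groups of 6 pools (a gene or list in 1 group), 21 pools stood apart from the other 5 by a gap of over 0.625 of the group's range, a share of 7.09%. Chance gives about 1 in 20 for independent groups. These groups share the same 12 pools, and many genes were named for a small p or after their values were seen. The share therefore cannot be read against 1 in 20. All values are log2 CPM, or the mean log2 CPM of a list. In 1.57 µM pools, nog1 was low in pool C at 1.44 (2.02 to 2.33 in the others), rgl3a was high in pool E at 3.54 (3.15 to 3.28), and mcoln1b was high in pool H at 2.65 (1.93 to 2.11). matn1 was low in pool H at 11.22 (12.08 to 12.35), as was krt91 at 8.59 (9.57 to 10.04). cyth4a was low in pool E at -2.84 (-1.81 to -1.20) and tctex1d2 in pool A at -3.49 (-2.03 to -1.55). In pool A the exocrine pancreas list was high at -0.06 (-2.43 to -1.78) and the oestrogen and vitellogenesis list low at -1.67 (-1 to -0.75).

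In DMSO, pool I stood apart most often. There grin1a was low at 5.80 (6.50 to 6.80 in the others), gria3a, an AMPA receptor subunit, at 5.11 (6.01 to 6.15), slc1a2b at 11.07 (11.65 to 11.94) and slc6a1b at 7.96 (8.70 to 9.10). In the same pool nog1 was high at 1.94 (1.41 to 1.58), acadvl at 6.49 (6.18 to 6.26), the cholesterol synthesis list at 2.98 (2.66 to 2.77) and the neutrophil and inflammation list at 2.19 (1.57 to 1.76). In pool D kcnb2 was high at 5.74 (5.01 to 5.14) and kcnh1a low at 0.74 (1.44 to 1.72). cldn23a was low in pool H at 1.13 (1.95 to 2.42), and cyth4a was high in pool G at 0.49 (-0.83 to -0.42).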

How the results depend on the processing

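For 1.57 µM against DMSO, 0.88 or 2.8 µM, 0 genes passed under every alternative run, including each pool left out. For the difference between ages DESeq2 called 5 genes and the other alternatives 0. Genes at an unadjusted p under 0.05 (390) numbered 774 without a filter on low counts, 407 with size factors of DESeq2's kind (223 higher, 184 lower), 237 without 1.57 µM pools A and E (170 higher, 67 lower) and 1729 with sample quality weights (651 higher, 1078 lower), the last 2 chosen after seeing the data. With 1 pool left out they numbered 236 to 796. Of 94 genes followed, 77 kept their sign in every setting, and the cause of the other changes was not tested. Many of the 94 were named for a small p or after their values were seen in these same pools. The share that kept its sign therefore cannot be read as a measure of how firm the differences are. On the deposited normalized values rho was -0.09. Without pools A and E, grm1a was 0.04, egr1 -0.08, fosab -0.29, rho -0.24 and tiparp -0.1. With 1 pool left out, gria3a ranged from -0.19 to 0.01, rho from -0.08 to 0.32 and tiparp from -0.02 to 0.2.

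For replicate letters shared by the groups, deviations of same-letter pools correlated at 0.057 (A), 0.0932 (D) and -0.0182 (H). The labels do not say what the letters mean, and so few correlations cannot decide whether same-letter pools share an origin. With the replicate block over 48 libraries 246 genes had an unadjusted p under 0.05, and the medians of the 11 neuronal signalling lists ran from -0.13 to 0.01 (-0.29 to -0.17 without the block), NMDA receptors at -0.02 and AMPA and kainate receptors at 0.01. The acetylcholine list, outside those 11, had -0.02 with this block and -0.08 without it. In the same block fit cartilage was 0.04, epidermis and muscle 0.08, immediate early genes 0.15 and hepatocytes 0.52. Among genes, grin1b and grin1a were 0.05, grin2aa and syt1a 0.02, gria3a 0.09, slc6a1b 0.01, atp1a3a 0.06 and rho -0.03. In the block fit of letters A, D and H the neuronal medians ran from -0.03 to 0.05 (NMDA 0.05, GABA 0.00), and cartilage was 0.09, epidermis 0.05, immediate early genes 0.14, hepatocytes 1.37 and lipoproteins 1.00 (0.18 without the block). In it grin1b was 0.09, grin1a 0.06, grin2aa 0.02, grin2bb, gria3a and syt1a 0.03, slc6a1b 0.05, scn1lab 0.01, kcnb2 and ptgs2b -0.01 and hmgcra -0.07. Depth limits the rarest genes most.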
